A study of Mus musculus with 6 samples.

Results

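Transcripts of 10 endothelial adherens and tight junction genes were measured in lymphatic endothelial cells (LECs) of the mouse dura mater. The members were taken by gene name: *Cdh5*, *Cldn5*, *Tjp1*, *Ocln*, *Esam*, *F11r*, *Jam2*, *Jam3*, *Ctnnb1* and *Ctnnd1*. They are 10 of the 55401 gene rows of the tables, each was found as 1 row, and all 10 were among the 17459 genes that passed the filter on low counts. The 6 libraries were bulk RNA-seq of sorted cells, 3 of mice given AAV-CTRL and 3 of mice given AAV-VEGF-C, numbered by experiment. All mice were wild type, and by the study's methods they were C57BL/6J males injected at 4 wk of age into the cisterna magna with an AAV9 vector. AAV-VEGF-C encoded full-length mouse VEGF-C, and AAV-CTRL encoded a soluble VEGFR-3 fragment that lacks the VEGF-C binding part, so the controls also carried a vector and a transgene. Each library pooled 10 to 12 meninges, and cells were gated as CD31+, podoplanin+, LYVE-1+ and CD45-.

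Adherens junctions hold endothelial cells together through VE-cadherin, whose cytoplasmic tail binds β-catenin and p120-catenin. Tight junctions seal the cleft between cells with claudin-5, occludin and the immunoglobulin-like molecules of the JAM family and ESAM, which scaffold proteins such as ZO-1 tie to actin. In initial lymphatics these proteins form discontinuous, button-like contacts, and fluid enters through the openings between the buttons. In collecting vessels the proteins form continuous zippers. VEGF-C, the main growth factor of lymphatic endothelium, acts through VEGFR-3, and the comparison asked how dural LECs respond to it.

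Library depth differed between the groups. The control libraries held 6530269 to 12399498 estimated counts and the AAV-VEGF-C libraries 564475 to 3261935, so depth and treatment cannot be told apart. Genes of families with no known use in endothelium, such as olfactory receptors and keratin-associated proteins, served as a background and averaged 0.0245 to 0.0357 TPM in the AAV-CTRL libraries and 0.337 to 0.386 in the AAV-VEGF-C libraries. TPM is a transcript level corrected for length and library total. Summed over 10 lymphatic markers, all detected in every library, it was 472 to 620 for AAV-CTRL and 172 to 376 for AAV-VEGF-C, and a list of 7 fibroblast markers summed higher than that in 5 of the 6 libraries. The 2 libraries of experiment 1 stood apart from the others. Their 7 leukocyte markers summed to 13.4 and 12.7 TPM, against 374 to 1262 in the other 4, and their blood endothelial list was 0.213 and 0.151 times the lymphatic list, against 0.599 to 1.71. The parts that these cells and the background had in the results below were not tested.

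β-Catenin and VE-cadherin led the order of levels. *Ctnnb1* (chr9:120929216-120960507, + strand, GRCm38), which encodes β-catenin, was at 81.7, 80.8 and 159 TPM in AAV-CTRL libraries 1, 2 and 3 and at 19.1, 22.2 and 37.8 TPM in the AAV-VEGF-C libraries. *Cdh5* (chr8:104101625-104144511, + strand), which encodes VE-cadherin, was at 39.5, 56.2 and 106 TPM in AAV-CTRL and at 14.1, 20.9 and 17.5 TPM in AAV-VEGF-C. *Ctnnb1* ranked 1 and *Cdh5* ranked 2 among the members in each of the 6 libraries. *Ctnnd1* (chr2:84600071-84650765, - strand), which encodes p120-catenin and keeps VE-cadherin at the membrane, was lower, at 14.1, 18.1 and 35.1 TPM and at 3.50, 12.39 and 9.18 TPM. All 3 genes were lower in TPM in each AAV-VEGF-C library than in any AAV-CTRL library, as were 58.9% of the 7563 genes that averaged 5 TPM or more.

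Of the tight junction genes, *Tjp1* and *Cldn5* had the highest group means, although *Esam* exceeded *Cldn5* in AAV-CTRL library 3 and *F11r* exceeded it in AAV-VEGF-C library 2. *Tjp1* (chr7:65296165-65527781, - strand), which encodes the scaffold ZO-1, was at 28.8, 18.1 and 58.5 TPM in AAV-CTRL and at 12.95, 14.8 and 14.4 TPM in AAV-VEGF-C. *Cldn5* (chr16:18776847-18778262, + strand), the main claudin of endothelium, was at 17.1, 23.01 and 41.5 TPM in AAV-CTRL and at 10.0, 5.85 and 7.02 TPM in AAV-VEGF-C. Neither gene overlapped between the groups in TPM, again beside 58.9% of genes that averaged 5 TPM or more. *Ocln* (chr13:100496507-100552718, - strand), which encodes occludin, had the lowest mean in both groups, at 0.535, 1.25 and 5.19 TPM in AAV-CTRL and at 0.585, 0.875 and 0.971 TPM in AAV-VEGF-C, and its groups overlapped. In AAV-VEGF-C its level was 1.51 to 2.88 times the mean of the silent families, against 15.004 to 160.0 times in AAV-CTRL, so at this depth occludin lay close to the background.

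The 4 genes of the JAM family and its relative ESAM were at lower levels than VE-cadherin. *Esam* (chr9:37528078-37538319, + strand), which encodes an adhesion molecule of endothelial tight junctions, was at 0.816, 14.3 and 43.8 TPM in AAV-CTRL and at 3.32, 2.93 and 5.86 TPM in AAV-VEGF-C. *Jam2* (chr16:84774123-84825928, + strand), which encodes JAM-B, was at 3.54, 5.33 and 24.6 TPM in AAV-CTRL, and at 0, 1.21 and 2.05 TPM in AAV-VEGF-C. The 0 came from a library of 564475 counts, where 3 counts, the limit that a count of 0 allows, correspond to 6.93 CPM (counts scaled to library size). *Jam3* (chr9:27097384-27155421, - strand), which encodes JAM-C, was at 9.15, 6.61 and 15.6 TPM in AAV-CTRL and at 0.977, 2.03 and 4.88 TPM in AAV-VEGF-C. *F11r* (chr1:171437535-171464603, + strand), which encodes JAM-A, was at 5.47, 8.90 and 13.9 TPM in AAV-CTRL and at 6.89, 6.04 and 4.60 TPM in AAV-VEGF-C. In TPM *Jam2* and *Jam3* did not overlap between the groups, beside the same 58.9%, whereas *Esam* and *F11r* did.

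**Figure D1:**
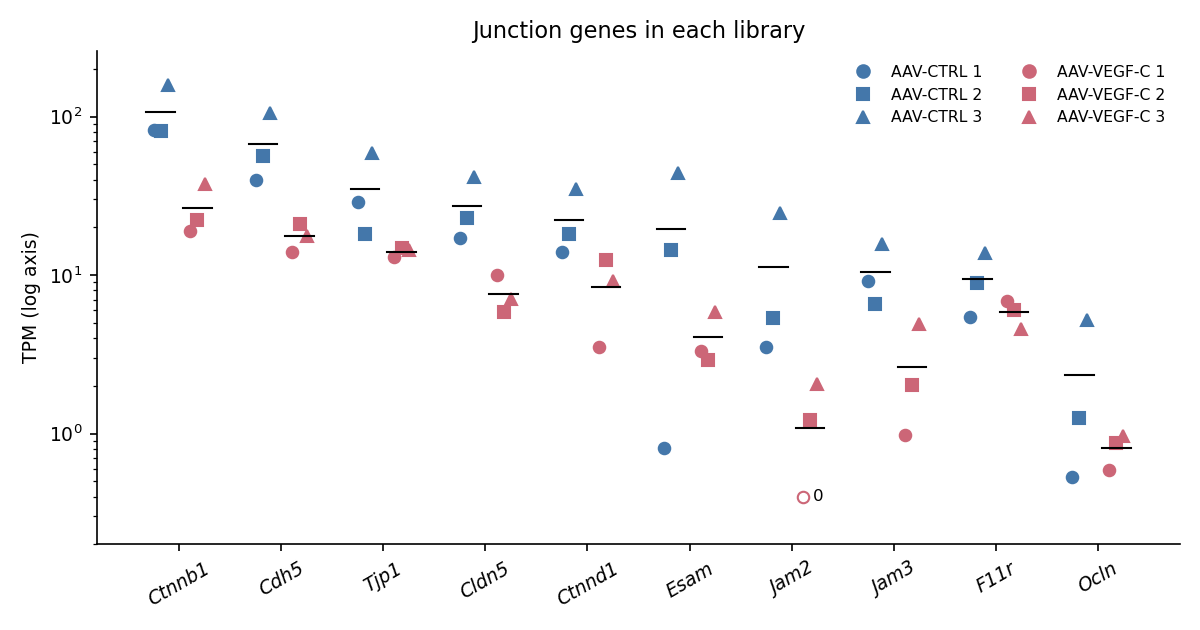
TPM of the 10 junction genes in each library on a log axis, ordered by the AAV-CTRL mean; black bars are group means and the open circle marks *Jam2* at 0 in AAV-VEGF-C library 1. *Ctnnb1* and *Cdh5* lie highest in both groups, and the AAV-CTRL points of *Esam* spread from 0.816 to 43.8.

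Mean AAV-CTRL levels fell in order from *Ctnnb1* at 107 ± 44.97 TPM (SD, n = 3) through *Cdh5* at 67.2 ± 34.6, *Tjp1* at 35.1 ± 20.9, *Cldn5* at 27.2 ± 12.7, *Ctnnd1* at 22.4 ± 11.2, *Esam* at 19.6 ± 21.96, *Jam2* at 11.2 ± 11.7, *Jam3* at 10.45 ± 4.63 and *F11r* at 9.41 ± 4.21 to *Ocln* at 2.33 ± 2.51. Only the last step exceeded the spread: *F11r* and *Ocln* did not overlap, and each other pair of neighbours did. In AAV-VEGF-C the order began alike, with *Ctnnb1* at 26.4 ± 10.0 TPM, *Cdh5* at 17.5 ± 3.41 and *Tjp1* at 14.03 ± 0.956, and only *Tjp1* was clear of its next neighbour, *Ctnnd1* at 8.36 ± 4.50. Within libraries the order of *Ctnnb1* over *Cdh5* over *Tjp1* held in all 6, although the group ranges overlapped.

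*Esam*, *Ocln* and *Jam2* varied far more between control libraries than the other members. *Esam* differed 53.6-fold between the highest and the lowest AAV-CTRL library, *Ocln* 9.70-fold and *Jam2* 6.96-fold, each highest in library 3 and lowest in library 1. The other 7 members differed 1.97-fold (*Ctnnb1*) to 3.23-fold (*Tjp1*). *Pecam1*, which encodes the gating marker CD31 and was used to choose the cells, differed 5.81-fold. Blood endothelial markers moved the same way: their summed level was 132, 295 and 865 TPM in AAV-CTRL libraries 1, 2 and 3, and *Vwf*, the von Willebrand factor gene, was at 1.35, 73.2 and 208 TPM. In the same list *Aqp1* did not rise in this order, at 50.2, 39.3 and 67.4 TPM. The summed lymphatic list stayed within 1.31-fold, at 620, 472 and 505 TPM, with *Ccl21a* alone at 352, 264 and 247. Its members went both ways, with *Sox18* at 4.23, 4.44 and 26.6 TPM and *Prox1* at 14.1, 6.44 and 7.45. Mural markers had the order of the blood endothelial sum, at 79.6, 101 and 260 TPM, whereas the fibroblast list was highest in library 1, at 1995, 934 and 1597 TPM. Leukocyte markers were also lowest in library 1, at 13.4, 1262 and 811 TPM. In bulk samples fewer cells of a type and less RNA per cell cannot be told apart, and the part of blood vessel cells or leukocytes in the levels of *Esam*, *Jam2* and *Ocln* was not tested.

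**Figure D2:**
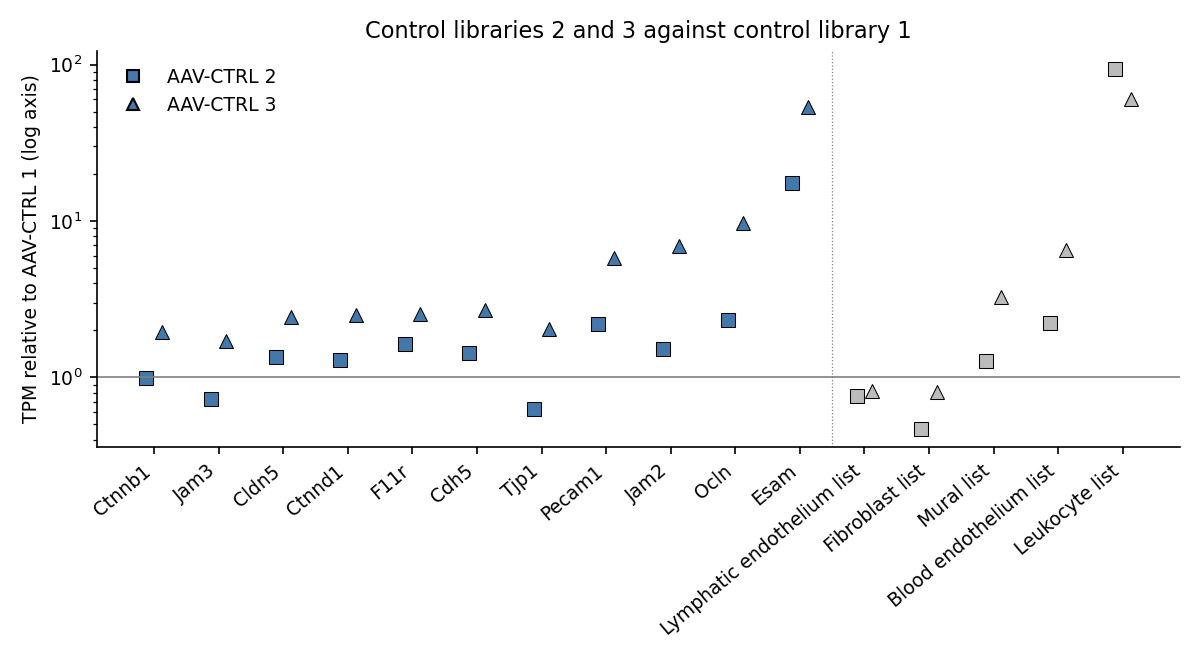
TPM in AAV-CTRL libraries 2 and 3 relative to AAV-CTRL library 1 on a log axis, for the members and *Pecam1* (blue) and for the summed marker lists (grey). *Esam* lies at 17.6 and 53.6, beyond the blood endothelial list at 2.23 and 6.55, while *Ctnnb1* lies at 0.988 and 1.95.

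The low *Esam* of experiment 1 was seen in counts in both groups. The AAV-CTRL libraries held 14, 279 and 1070 *Esam* counts, and the AAV-VEGF-C libraries held 2, 21 and 49. Relative to the *Cdh5* count of the same library this was 0.00786, 0.116 and 0.162 for AAV-CTRL and 0.0142, 0.0897 and 0.110 for AAV-VEGF-C. Both libraries of experiment 1 thus held the 2 lowest values, and the other 4 lay close together. The TPM of AAV-VEGF-C library 1 hid this, because its 2 *Esam* counts were given 3.32 TPM at an implied gene length only 0.124 times that of AAV-CTRL library 3. Implied lengths also differed between libraries for *Tjp1* (2.74-fold, shortest in the AAV-VEGF-C libraries), *Ocln* (2.51-fold), *Jam2* (1.81-fold), *Cdh5* (1.497-fold) and *Ctnnb1* (1.44-fold), so TPM and TPM ratios of these genes carry the same doubt. For *Cldn5*, *F11r*, *Jam3* and *Ctnnd1* the difference was at most 1.28-fold.

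No junction gene was called higher or lower in AAV-VEGF-C than in AAV-CTRL (quasi-likelihood test of edgeR, threshold 0.05 after Benjamini-Hochberg adjustment). Among all 17459 genes tested, 10.5% were called higher and 0.659% lower. The share called higher depended on the setting. It was 11 of 15329 genes with silent-family background subtracted and 18 of 7374 with all libraries drawn down to the smallest total. In the reported fit, 9 of the 10 members had a log2 fold change below 0, with a median of -0.78. Scaled on the 2000 most abundant genes, 7 were below 0, and the median of all genes was then 0.43. In the reported fit the median was -0.0037 over all genes tested, and -0.41 over the 7234 tested genes that averaged 5 TPM or more, of which 76% were below 0. An unadjusted p under 0.05 was reached by 2 members, *Ctnnb1* and *Jam3*, both lower, and by 28.1% of all genes tested in either direction. This fit did not pair the libraries by experiment. A fit with experiment as a block called 1 member lower, *Jam2*, beside 2.07% of all genes tested. With the block, 5 members reached an unadjusted p under 0.05, beside 5554 of the 17459 genes tested. Other fits called 1 member lower with DESeq2, beside 1.74% of all genes given an adjusted p, 1 with limma voom, beside 1.53%, and 1 with limma on log2(TPM + 1), beside 2.49%. With no filter on low counts edgeR called 4, beside 2.64%, and the median of all genes was then 1.88. The fit used CPM scaled by TMM factors, which assume that most genes do not differ.

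β-Catenin came closest to the threshold. *Ctnnb1* was at 324, 325 and 420 scaled CPM in AAV-CTRL and at 238, 153 and 180 in AAV-VEGF-C, so that the groups did not overlap. Its log2 fold change was -0.91 (SE 0.30, 95% interval -1.60 to -0.22, adjusted p 0.0954 by edgeR). DESeq2 called it lower at -0.98 (adjusted p 0.0282), as did limma voom with sample weights at -0.98 (adjusted p 0.0369). Scaled on the 2000 most abundant genes it was -0.41 (adjusted p 0.528), with only genes averaging 5 TPM or more -0.52 (adjusted p 0.508), and with all libraries drawn down to the smallest total -0.35 (adjusted p 0.749). *Jam3* likewise did not overlap, at 22.6, 17.6 and 26.3 scaled CPM against 9.24, 7.88 and 14.95. Its log2 fold change was -0.99 (SE 0.37, interval -1.86 to -0.13, adjusted p 0.132 by edgeR), on 4, 11 and 52 counts in the AAV-VEGF-C libraries. These 2 of 10 members (20%) stood beside 17.6% of all genes tested that were lower without overlap, and 0 members beside 22.3% that were higher without overlap. In TPM, 7 of 10 members were lower without overlap, against 36.4% of all genes tested and 58.9% of the 7563 genes that averaged 5 TPM or more. A short RNA held 11.1% to 29.3% of each library's TPM, which changes the share left to every other gene.

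Lower fitted values with wide intervals were obtained for *Jam2* and *Esam*. *Jam2* was at 12.7, 21.8 and 75.9 scaled CPM in AAV-CTRL and at 0, 11.5 and 16.1 in AAV-VEGF-C, and the fitted log2 fold change was -1.77 (SE 0.86, interval -3.77 to 0.23, adjusted p 0.227 by edgeR), which depends on how the count of 0 is treated and is no bound. *Esam* was at 2.25, 35.5 and 72.5 against 4.62, 15.1 and 14.1, with a log2 fold change of -1.59 (SE 1.003, interval -3.92 to 0.74, adjusted p 0.341). Both genes overlapped between groups, through AAV-CTRL library 1. Without that library *Esam* was called lower at -2.18 (adjusted p 0.0419), without AAV-CTRL library 3 it was at -0.72 (adjusted p 0.685), and its adjusted p ran from 0.00245 to 0.710 over all alternatives. *Jam2* was at -0.77 (adjusted p 0.575) without AAV-CTRL library 3 and at -2.47 (adjusted p 0.238) without AAV-VEGF-C library 3. With experiment as a replicate block it was called lower at -1.86 (adjusted p 0.0359), the only member so called, where 2.07% of all genes tested were lower.

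VE-cadherin, ZO-1, claudin-5 and p120-catenin overlapped between the groups in scaled CPM. *Cdh5* was at 286, 305 and 448 in AAV-CTRL and at 326, 168 and 128 in AAV-VEGF-C, a log2 fold change of -0.75 (SE 0.41, interval -1.71 to 0.21, adjusted p 0.277 by edgeR). *Tjp1* was at 198, 133 and 252 against 155, 87.4 and 93.2, a log2 fold change of -0.81 (SE 0.36, interval -1.65 to 0.024, adjusted p 0.189). For *Cdh5* the overlap came from experiment 1, since AAV-VEGF-C library 1 lay above 2 control libraries. *Cldn5* was at 49.8, 56.7 and 66.5 against 92.4, 25.1 and 23.9, a log2 fold change of -0.38 (SE 0.53, interval -1.61 to 0.86, adjusted p 0.691). Here AAV-VEGF-C library 1 was the highest of all 6 and the other AAV-VEGF-C libraries were the lowest, and without it *Cldn5* was called lower at -1.31 (adjusted p 0.0470). *Ctnnd1* was at 126, 137 and 143 against 94.7, 171 and 97.8, a log2 fold change of -0.15 (SE 0.31, interval -0.88 to 0.57, adjusted p 0.798).

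*Ocln* and *F11r* changed sign when 1 library was left out. *Ocln* was at 1.61, 4.58 and 13.5 scaled CPM against 4.62, 3.58 and 6.04, with only 2, 5 and 21 counts in the AAV-VEGF-C libraries, and its log2 fold change was -0.45 (SE 0.80, interval -2.31 to 1.41, adjusted p 0.764 by edgeR). Without AAV-CTRL library 3 it was 0.55 (adjusted p 0.663). JAM-A was the exception in direction: *F11r* was at 24.4, 33.5 and 34.3 scaled CPM in AAV-CTRL and at 94.7, 39.4 and 21.3 in AAV-VEGF-C, a log2 fold change of 0.68 (SE 0.52, interval -0.52 to 1.88, adjusted p 0.435). Its 3 AAV-VEGF-C values spanned the whole control range, and without AAV-VEGF-C library 1 the value was -0.11 (adjusted p 0.875). Its sign was below 0 in 5 of 19 alternatives.

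Within single experiments the direction of most members was not the same. In experiment 3 all 10 members were lower in AAV-VEGF-C, with log2 ratios of scaled CPM from -0.55 (*Ctnnd1*) to -2.36 (*Esam*). In experiment 2 there were 8 below 0, led by *Esam* at -1.24, while *F11r* was at 0.24 and *Ctnnd1* at 0.32. In experiment 1 there were 5 above 0: *F11r* at 1.96, *Ocln* at 1.53, *Esam* at 1.04, *Cldn5* at 0.89 and *Cdh5* at 0.19. *Jam2* had no ratio because of its count of 0. The ratios of *Ocln* and *Esam* rest on 2 counts each in AAV-VEGF-C library 1, at 4.62 scaled CPM, where 3 counts correspond to 6.93. Their direction in experiment 1 is therefore uncertain. The exceptions to the split between experiments were *Jam3*, *Ctnnb1* and *Tjp1*, which were below 0 in each. In experiments 1, 2 and 3 *Jam3* was at -1.29, -1.15 and -0.82, on 4 counts in AAV-VEGF-C library 1. *Ctnnb1* was at -0.44, -1.09 and -1.22, and *Tjp1* at -0.36, -0.61 and -1.43. In a fit of experiments 2 and 3 only, chosen after the values were seen, *Cdh5* (-1.43, adjusted p 0.0460), *Cldn5* (-1.41, adjusted p 0.0310) and *Esam* (-1.97, adjusted p 0.0311) were called lower by edgeR. That was 3 of 10, beside 0.572% of the 19222 genes tested there. All 3 were above 0 in the experiment left out, *Esam* on 2 counts, so the choice itself favoured these calls and no conclusion is drawn from them. In experiments 2 and 3 the summed blood endothelial list was also lower, at 295 and 865 TPM for AAV-CTRL against 126 and 104 for AAV-VEGF-C, and its part in these calls was not tested.

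**Figure D3:**
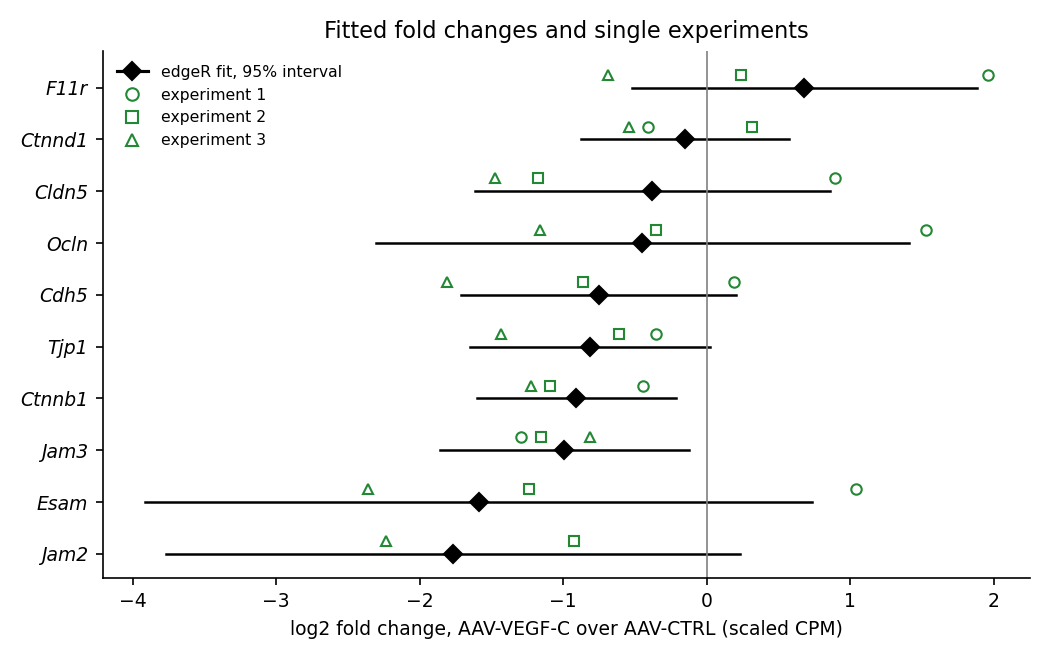
Log2 fold changes of AAV-VEGF-C over AAV-CTRL in scaled CPM: black diamonds and lines are the edgeR fit with its 95% interval, and green symbols are the ratios within each experiment (*Jam2* has none in experiment 1). The interval excludes 0 for *Ctnnb1* and *Jam3* before adjustment. The circles of experiment 1 lie above 0 for 5 genes, of which *Ocln* and *Esam* had 2 counts each in AAV-VEGF-C library 1.

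A ratio of 2 genes within a library does not depend on scaling, so each member was set against *Cdh5*, the defining cadherin of endothelium. *F11r* alone did not overlap between the groups. Its TPM was 0.138, 0.158 and 0.131 times that of *Cdh5* in AAV-CTRL and 0.490, 0.289 and 0.262 times in AAV-VEGF-C. The mean log2 ratio was higher by 1.23 (exact permutation test, two-sided p 0.1, the smallest that 3 against 3 libraries can give, adjusted p 0.8 over 8 ratios). Ratios of counts gave 0.0853, 0.110 and 0.0766 against 0.291, 0.235 and 0.166, also without overlap. Over the reported setting and its alternatives, among them *Pecam1* as denominator, the log2 difference ran from 0.96 to 1.41. This was 1 of 9 members, where 31.9% of all genes tested, and 15.5% of those that averaged 5 TPM or more, had a higher ratio to *Cdh5* without overlap, so a ratio like that of *F11r* was not rare.

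The other members kept ratios to *Cdh5* that overlapped. *Cldn5* was at 0.433, 0.409 and 0.391 times *Cdh5* in AAV-CTRL, nearly constant, and at 0.712, 0.280 and 0.4002 times in AAV-VEGF-C. *Ctnnd1* was likewise close in AAV-CTRL, at 0.355, 0.321 and 0.331, and apart in AAV-VEGF-C, at 0.249, 0.593 and 0.524. *Ctnnb1* was at 2.07, 1.44 and 1.502 against 1.35, 1.06 and 2.15, and over the 6 libraries its ratio varied 2.03-fold. The ratio of *Esam* varied 20.01-fold, and those of *Ocln*, *Jam3*, *Jam2* and *F11r* varied 3.75-fold to 4.09-fold. For these ratios the log2 differences were from -0.61 (*Jam2*, without the library at 0) to 0.90 (*Ocln*), and the exact two-sided p of the 7 tested was 0.2 to 0.9. The ratio of *Tjp1* was higher by 0.68 in TPM but by 0.028 in counts, and that of *Ocln* by 0.90 but by 0.0063 after the silent-family TPM was subtracted.

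**Figure D4:**
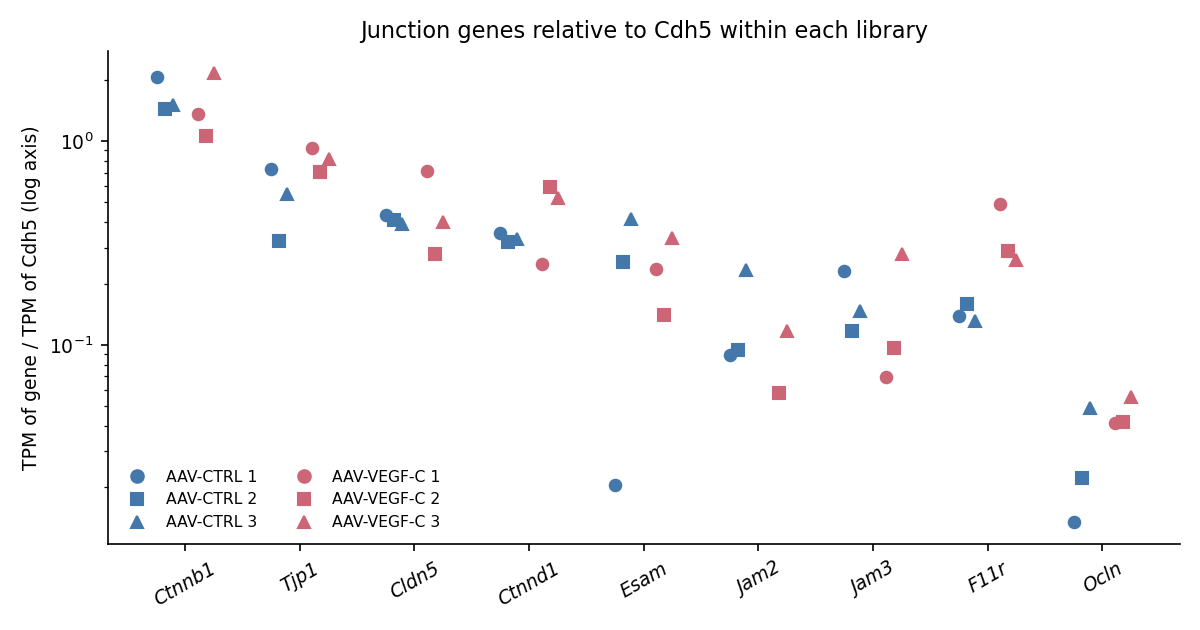
TPM of each member divided by TPM of *Cdh5* in the same library, on a log axis, by group and experiment; *Jam2* has no point for AAV-VEGF-C library 1. The *F11r* points of the groups are apart (0.131 to 0.158 against 0.262 to 0.490), and the *Esam* point of AAV-CTRL library 1 lies far below the others.

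The promoters of *Cldn5* and *F11r* are shown because these are the endothelial claudin and the member that left the others in its ratio to *Cdh5*. RefSeq windows on GRCm38.p6 matched 6 of the 10 members, and *Cdh5*, *Esam*, *Jam2* and *Jam3* were not among them. The 250 bases before each start site are printed on the + strand, with capitals marking a GC box (GGGCGG) and an E-box of the Snail and ZEB repressors (CACCTG), searched on both strands. Of 32851 promoters of this length, 32.7% held the GC box and 17.2% the E-box.
Cldn5 (chr16:18776597-18776846): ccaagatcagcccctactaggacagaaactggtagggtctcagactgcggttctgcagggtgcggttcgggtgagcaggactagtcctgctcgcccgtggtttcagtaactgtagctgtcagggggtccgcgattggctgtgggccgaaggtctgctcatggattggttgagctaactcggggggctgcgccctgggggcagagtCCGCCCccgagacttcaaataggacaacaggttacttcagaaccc
F11r (chr1:171437311-171437560): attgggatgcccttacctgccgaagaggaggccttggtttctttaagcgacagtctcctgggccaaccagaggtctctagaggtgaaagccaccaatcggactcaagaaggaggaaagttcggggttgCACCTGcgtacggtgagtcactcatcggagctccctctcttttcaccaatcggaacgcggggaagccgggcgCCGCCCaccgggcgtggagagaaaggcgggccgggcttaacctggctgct
Both windows were rich in G and C, at 59.6% (*Cldn5*) and 60% (*F11r*) against a median of 52.4% over all promoters. *Cldn5* held 12 CpG and *F11r* 17, against a median of 6. Each held 1 GC box, starting 45 bases (*Cldn5*) and 50 bases (*F11r*) before the start site. The E-box was found in *F11r* alone of the pair, starting 122 bases before the start site. These matches are letters in a window, and nothing was measured of any factor there.

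Around these members, 63 other junction genes in 4 roles were listed, of which 62 were tested. None was called higher, beside 10.5% of all genes tested, and 1 was called lower, beside 0.659%. The gene called lower was *Arhgap29*, a Rap1 effector at endothelial junctions, with a fitted log2 change of -1.29 (SE 0.33, adjusted p 0.0468 by edgeR). It averaged 38.7 TPM in controls and 8.26 with AAV-VEGF-C. No related gene was called lower when any 1 of the 6 libraries was left out, but those fits called only 0 to 48 of all genes tested lower. An unadjusted p under 0.05 in either direction was reached by 19 of the 62, beside 28.1% of all genes tested. Most of the 19 were lower, whereas the adjusted calls over all genes were 1835 higher and 115 lower. The median log2 fold change of the 62 was -0.37. Below 0 were 44 (71%, beside 50.2% of all genes tested and 76% of those that averaged 5 TPM or more). Lower without overlap were 17 (27.4%, beside 17.6% and 33.3%).

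By role the medians ranged from -0.74 to 0.49. The 25 regulators of VE-cadherin and junctional actin had a median log2 fold change of -0.74, with 23 below 0 (92%) and 10 lower without overlap (40%). The shares were 50.2% and 17.6% over all genes tested. Among those that averaged 5 TPM or more they were 76% and 33.3%, with a median of -0.41. The most abundant were *Rhoa*, the GTPase that drives contraction, at a log2 fold change of -1.03 (adjusted p 0.0539 by edgeR), *Rac1*, the GTPase that supports spreading, at -0.71 (adjusted p 0.138), and the scaffold *Iqgap1* at -0.75 (adjusted p 0.332). The 15 adherens junction genes had a median of -0.38, with 11 below 0. Their most abundant were *Cdh11*, a mesenchymal cadherin typical of fibroblasts, at -1.30 (adjusted p 0.0810), the linker *Afdn* at -0.85 (adjusted p 0.139) and *Ctnna1*, which encodes α-catenin and joins cadherin complexes to actin, at -0.85 (adjusted p 0.0804). *Cdh11* averaged 127 TPM in controls and 27.1 with AAV-VEGF-C, above the mean of *Cdh5* in both groups. In AAV-VEGF-C library 1, however, *Cdh11* was at 13.9 TPM and *Cdh5* at 14.1.

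The tight junction and gap junction genes had no common direction. The 17 tight junction genes had a median log2 fold change of 0.064, with 8 below 0, and their most abundant were *Pard3*, a polarity gene, at -0.67 (adjusted p 0.326 by edgeR), *Cldn11*, a claudin of the arachnoid barrier, at -0.94 (adjusted p 0.278), and the scaffold *Cgnl1* at -0.60 (adjusted p 0.171). The 5 gap junction genes had a median of 0.49, with 2 below 0. The most abundant of these was *Gja1*, which encodes connexin 43, at -0.67 (adjusted p 0.214), beside *Gjc1* at -0.84 (adjusted p 0.300) and *Gja4* at 0.49 (adjusted p 0.629). Higher without overlap were 4 of the 62 genes, beside 22.3% of all genes tested, chosen after their values were seen: *Marveld3* at 3.52, *Cdh13* at 1.86, *Marveld2* at 1.79 and *Radil* at 1.24, none past the threshold. In AAV-CTRL these averaged only 0.234, 1.55, 0.287 and 0.701 TPM, and the silent families, too, stood higher in AAV-VEGF-C.

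**Figure D5:**
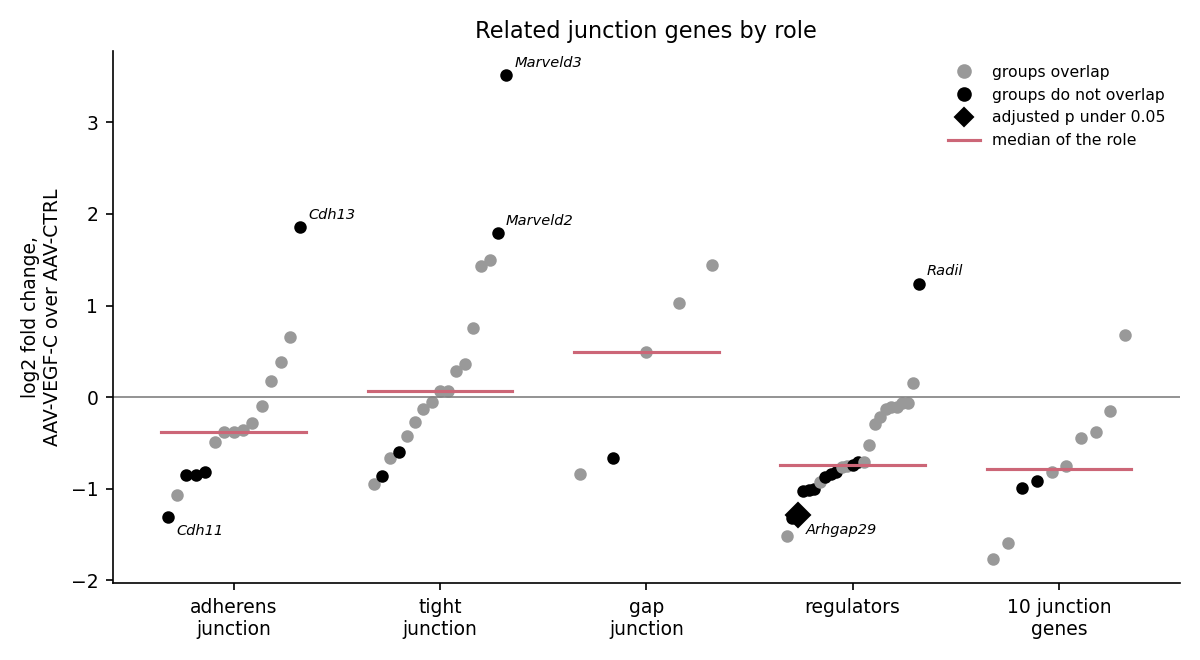
Log2 fold changes (edgeR) of the 62 related genes tested, by role, and of the 10 members; each point is a gene, the red bar the median, black points do not overlap between groups, and the diamond is *Arhgap29*, the gene past the threshold. The medians lie at -0.38, 0.064, 0.49, -0.74 and -0.78 from left to right.

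The genes of the sort markers were not called either. The log2 fold change of *Pecam1* was -1.06 (adjusted p 0.212 by edgeR), that of *Pdpn* -0.60 (adjusted p 0.415), that of *Lyve1* 0.0062 (adjusted p 0.997) and that of *Ptprc*, the CD45 gene used to exclude leukocytes, -0.16 (adjusted p 0.960). The lymphatic genes *Prox1* and *Flt4* were at 0.79 (adjusted p 0.524) and 0.35 (adjusted p 0.774).

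Over the 6 libraries, the genes whose levels ran closest to the 2 best known endothelial members were found by the root-mean-square difference in centred log2(TPM + 1) among 1316 genes that averaged 20 TPM or more. For *Cdh5* they were *Zcchc7* (0.123), *Plvap* (0.162), *Mkln1* (0.167), *Adgrf5* (0.180) and *Anxa5* (0.212). *Plvap*, which encodes the diaphragm protein of endothelial fenestrae and of lymph node sinuses, was at 60.8, 82.0 and 215 TPM in controls and at 25.6, 35.9 and 27.0 with AAV-VEGF-C. For *Cldn5* they were *Cavin2* (0.0605), *Mbd2* (0.167), *Atrx* (0.210), *Aqp1* (0.280) and *S100a16* (0.284). *Cavin2*, which shapes caveolae, was at 21.6, 26.4 and 47.2 TPM and at 11.2, 6.78 and 7.83 TPM, high in AAV-VEGF-C library 1 among its group just as *Cldn5* was. *Plvap* and *Aqp1* are also on the blood endothelial list. These points share library, depth and group, so the likeness is a description.

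Counts of some members may include reads of overlapping genes, since the use of strand in counting was not given in the sources used here. *Tjp1* overlaps *Gm44794* and *Gm44792* on its own strand, *Jam2* overlaps *Gm25908*, *Ctnnd1* overlaps *Gm28635* and *Ctnnb1* overlaps *Mir7090*. On the opposite strand *Cdh5* overlaps *Gm29682*, *Jam3* overlaps *Gm48796*, *Tjp1* overlaps *Gm44795*, and *Ctnnb1* overlaps *4930593C16Rik* and *Ulk4*. *Cldn5*, *Ocln*, *Esam* and *F11r* overlap no other annotated gene.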

How the data were processed

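LECs were sorted from pooled meninges of mice given either vector, and total RNA was made into stranded low-input libraries. The tables that the authors deposited hold estimated counts, unscaled, and TPM, corrected for gene length and library total. Per the labels the tools were FastQC, Trimmomatic, DRAGEN and Picard, and the build was mm10. Their roles, the annotation and the use of strand or molecular identifiers are not given in the sources used here. Of the gene identifiers, 98.1% equal GENCODE M21 with their version, which gave positions and overlaps (GRCm38). Every per-sample column was mapped to a library.

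Estimated counts were rounded, filtered by filterByExpr of edgeR (version 4.0.16, R 4.3.3), scaled by TMM and tested over all genes by its quasi-likelihood F test (Benjamini-Hochberg, 0.05). The fit was tested on simulated counts. Ratios to *Cdh5* were compared by exact permutation tests. Alternatives included DESeq2 (version 1.42.0, the tool of the study) and limma (version 3.58.1) on log2(TPM + 1), log2(TPM + 0.1) and voom values. Members and lists were chosen with earlier results of these data known. Named genes were the members, the sort markers, *Prox1* and *Flt4*, related genes past the threshold, the 3 most abundant in AAV-CTRL of each role, and the 5 nearest to *Cdh5* and to *Cldn5*.

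Libraries of 1 group differed by more than counting noise (chi-square over its degrees of freedom 8.78 or more), and each is a pool of meninges, so p-values measure the spread between pools. The labels number the samples by experiment. Deviations from the group means correlated within each number (r = 0.369, 0.280 and 0.155, against at most 0.216 between different numbers). For number 3 the pairing was less clear, since AAV-CTRL library 3 correlated more with AAV-VEGF-C library 2 (0.216) than with library 3 (0.155). The numbers were taken to pair the libraries in the block fit and the ratios within experiments, whereas the reported fit did not pair them. Counts of 0 and their limits cover counting error only.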

Additional observations from a re-analysis of the deposited data

How the results depend on the processing

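No member was called higher by any alternative. Members called lower numbered 0 as reported, beside 0.659% of all genes tested. They numbered 4 with no filter on low counts (*Tjp1*, *Esam*, *Jam2* and *Ctnnb1*, beside 2.64% of all genes, whose median was 1.88). DESeq2 called 1 (beside 1.74%, median 2.29), voom weights 1 (beside 1.53%) and limma on log2(TPM + 1) 1 (*Jam2*, beside 2.49%). The replicate block called 1 (beside 2.07%). At an adjusted p under 0.1 there was 1, and the share over all genes was not computed there. In experiments 2 and 3 only, a setting added after the data were seen, there were 3 (beside 0.572%). The replicate block changed no other call among the members. Leaving out each library in turn gave 0 to 1 members lower. Members lower without overlap numbered 2 as reported (beside 17.6% of all genes tested) and 7 in TPM (beside 36.4%). In CPM on library totals they numbered 4, and the share over all genes was not computed there. Related genes called lower numbered 1 as reported, beside 0.659% of all genes tested. They numbered 0 with DESeq2 size factors, library totals or scaling on the 2000 most abundant genes, which called 111, 53 and 9 of all 17459 genes lower. They were also 0 with a mean of at least 5 TPM, drawing down, silent-family subtraction or without each library in turn. With no filter they numbered 11 (beside 2.64% of all genes) and with DESeq2 6 (beside 1.74%). With limma they numbered 4 on log2(TPM + 1) (beside 2.49%), 3 on log2(TPM + 0.1) (beside 163 of 17459 genes) and 4 with voom (beside 1.53%). With the replicate block there were 6 (beside 2.07%), and in experiments 2 and 3 only 3 (beside 0.572%). Among all genes tested, 0 were called lower with a mean of at least 5 TPM, drawing down or silent-family subtraction, and 0 to 48 without single libraries. Those settings called 9, 18 and 11 higher, and 0 to 1771 without single libraries. Related genes called higher numbered 0 as reported, beside 10.5% of all genes tested. They numbered 1 with library totals (beside 2054 of 17459 genes), 2 with the 2000-gene scaling (beside 2299) and 3 with no filter (beside 9382 of 44563). DESeq2 called 2 higher (beside 5669 of the 29007 genes given an adjusted p), voom 1 (beside 2380 of 17459) and the replicate block 1 (beside 2241). The cause of these changes was not tested.

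Signs were kept by *Cdh5*, *Tjp1*, *Esam*, *Jam2*, *Jam3* and *Ctnnb1* under each alternative that gave a value. The scaling on the 2000 most abundant genes moved the median of all genes to 0.43, and there the log2 fold change was 0.18 for *Cldn5* and 0.28 for *Ctnnd1*. With a mean of at least 5 TPM they were 0.049 and 0.18, and after drawing down 0.21 and 0.11. With silent-family background subtracted *Ctnnd1* was at 0.063. *F11r* was at -0.54 on log2(TPM + 1), -0.60 on log2(TPM + 0.1), -0.11 with voom and -0.26 in experiments 2 and 3 only, and without single libraries it ran from -0.11 to 0.99. *Ocln* ran from -0.94 to 0.55 without single libraries. As a ratio of counts to *Cdh5*, *Esam* was at -0.026, *Jam2* at 0.19 and *Tjp1* at 0.028, and with silent-family TPM subtracted *Ocln* was at 0.0063. Without single libraries the log2 ratios ran from -0.54 to 1.62 for *Esam*, -0.30 to 0.38 for *Cldn5*, -0.95 to 0.048 for *Jam3* and -0.46 to 0.053 for *Ctnnb1*. Drawing down left 7 members tested and the 5 TPM filter 9. Depth limits *Ocln*, *Jam2*, *Jam3* and *Esam* most, with at most 56 counts in any AAV-VEGF-C library.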
